A study of Mus musculus with 6 samples.

Results

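The ventricle wall spots were the 25 spots of each brain section with the highest level of 4 ependymal transcripts, Ccdc153, Tmem212, Foxj1 and Dynlrb2, after the 30 spots with the highest level of 4 choroid plexus transcripts, Kl, Folr1, Clic6 and Kcne2, had been set aside. Over 6 sections this gave 150 of the 16741 spots that held at least 500 UMIs (unique molecular identifiers, each standing for 1 captured RNA molecule). A level was the log of 1 plus the UMIs scaled to 10000 per spot, summed over the 4 genes. A further 180 spots were the choroid plexus spots, and 16411 were all other spots. The spots were chosen by the measured levels of these 8 genes, so their levels are given as a description without a test, and the same holds for every comparison of the ventricle wall spots with other spots of the same sections.

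The sections were coronal, 16 µm thick, from frozen brains of C57BL/6J males (an inbred strain), with no treatment or genetic change named. Mice aged 6 months (young), 18 months (middle) and 21 months (old) gave 2 sections each, and since the labels state 2 males for each age, every section was treated as its own animal. Young 1, young 2, middle 1 and old 1 lay on slide 1, and middle 2 and old 2 on slide 2, so slide and age overlap in part. RNA was captured on Visium slides, on which each barcoded spot is a small region that can hold several cells or parts of cells. With 2 sections per age, the p-values measure the spread between these sections only.

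Ependymal cells form the epithelium that lines the brain ventricles. Most carry a tuft of motile cilia, whose beat moves cerebrospinal fluid along the wall. Each motile cilium is built on an axoneme, a ring of microtubule doublets around a central pair, with dynein arms as motors and radial spokes and nexin links that coordinate them. Transcription factors of the forkhead and RFX families, Foxj1 among them, switch on the genes of this structure.

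Summed over the 25 spots, the sections gave 349128 to 812325 UMIs, which was 0.573% to 1.06% of a section's UMIs. Median UMIs per ventricle wall spot were 33157 and 19833 in young 1 and young 2, 24781 and 17072 in middle 1 and middle 2, and 22120 and 12126 in old 1 and old 2. Mitochondrially encoded transcripts took 8.57% to 11.9% of UMIs in these spots and 13.4% to 16.6% in all other spots. The slide layout repeats, and 1919 spot barcodes were kept in all 6 sections. The 150 ventricle wall spots used 135 different barcodes, of which 14 served in more than 1 section.

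The 4 markers were concentrated in few spots. Ccdc153 stood at 511 and 408 CPM (UMIs per 1000000 UMIs of the summed spots) in young 1 and young 2, 356 and 615 in middle 1 and middle 2, and 503 and 407 in old 1 and old 2, against 1.10 to 2.79 CPM in all other spots. Foxj1, the forkhead regulator of motile cilia, ran from 197 to 296 CPM in the ventricle wall spots and from 3.95 to 5.48 CPM in all other spots. Between 18 and 25 of the 25 spots in a section held UMIs of all 4 markers. At the edge of the set, the score of the last spot taken and the first left out were 2.12 and 1.83 in young 1, 1.86 and 1.79 in young 2, 1.44 and 1.39 in middle 1, 4.55 and 4.42 in middle 2, 3.94 and 3.801 in old 1, and 2.97 and 2.66 in old 2. The fixed number of 25 therefore reached lower scores in both young sections and in middle 1 than in middle 2, old 1 and old 2.

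The ventricle wall spots did not hold all UMIs of the 4 markers in a section. They carried 27.9% to 42.6% of the UMIs of the 4 markers, and the 30 choroid plexus spots carried another 23.7% to 45.8%. Spots with at least 3 of the 4 markers numbered 57, 52 and 52 over the whole of young 1, young 2 and middle 1, and 86, 79 and 66 over middle 2, old 1 and old 2. Outside both sets there were 9, 4 and 2 such spots in the first 3 sections and 37, 29 and 19 in the other 3.

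**Figure D1:**
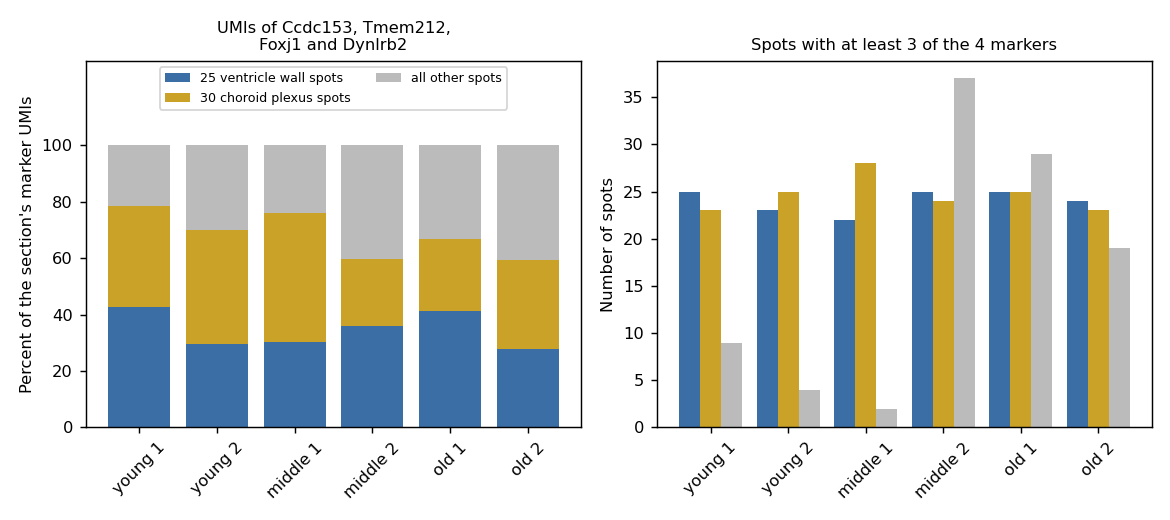
Left, percent of each section's UMIs of the 4 ependymal markers that fell in the 25 ventricle wall spots (blue), the 30 choroid plexus spots (yellow) and all other spots (grey). Right, number of spots of each kind with at least 3 of the 4 markers. The grey share is 21.6% to 29.9% in young 1, young 2 and middle 1 and 33.0% to 40.8% in middle 2, old 1 and old 2.

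Motile cilia genes outside the rule followed the markers. Ratios for lists are the median over the 6 sections of the ratio of CPM + 1 to that in all other spots, which understates the ratio of low genes, while ratios of single genes have no pseudocount. Of 99 genes with UMIs in 4 lists of motile cilia genes, 95 were at least 2-fold higher by this ratio, with a median log2 ratio of 4.01; over all 23897 genes, 9.91% reached this and the median log2 ratio was -0.01. Among outer and inner arm motors, Dnah6 stood at 88.6 and 95.6 CPM in young, 60.7 and 84.6 in middle and 79.9 and 91.7 in old sections, against a mean of 0.34 CPM in all other spots. Dnah5, a heavy chain of the outer arm, ran from 38.8 to 68.9 CPM against a mean of 1.87. The exception in the dynein list was Dynll1, a light chain that many cellular motors share, at 620 to 891 CPM against a mean of 877 in all other spots.

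Genes of the radial spokes, the central pair and the inside of the axoneme were as concentrated relative to all other spots. Rsph1, a radial spoke head protein, ran from 182 to 318 CPM against a mean of 3.95 in all other spots. Hydin, a protein of the central pair, ran from 15.2 CPM in middle 1 to 74.3 CPM in middle 2 against a mean of 0.412. Ak7, an adenylate kinase of motile cilia, stood at 127 and 125 CPM in young, 77.5 and 155 in middle and 127 and 137 in old sections. The summed level of the axoneme and other motile cilia list was lowest in middle 1 (2621 CPM) and highest in middle 2 (4046 CPM). The choroid plexus spots also held much of this list, at 1610 to 2387 CPM. The list of radial spokes, central pair and nexin link ran from 929 to 1505 CPM, and from 843 to 1093 CPM in the choroid plexus spots. In middle 1 the choroid plexus spots held more of that list (1093 CPM) than the ventricle wall spots (929 CPM). Of the 14 genes of dynein arm assembly and docking in the files, 13 had UMIs for a ratio and all 13 were at least 2-fold higher, among them Zmynd10 at 43.8 to 77.3 CPM.

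The 20 genes with the highest ratio to all other spots were taken among those with at least 50 CPM and outside the rule. They included genes of the motile cilia lists and genes that are in none of the lists, such as Stoml3 and Cdhr4. Sntn, which encodes sentan of the ciliary tip, led with a median of 353 times the level of all other spots (range over sections, 186 to 1025), at 96.0 and 58.5 CPM in young, 80.9 and 90.8 in middle and 66.6 and 65.9 in old sections. Stoml3, a stomatin-like membrane protein, followed at 321 times and Tctex1d4, a dynein light chain of the Tctex family, at 317 times. The others were 1700024G13Rik, Ak7, Gm10714, Dnah6, Nme9, 1700001C02Rik, Lrrc36, 2010001K21Rik, Dnali1, Cdhr4, Ccdc146, Fam166b, Ccdc33, Dnah10, 1700012B09Rik, Calml4 and Cfap161, with median ratios on the log2 scale from 6.95 for Cfap161 to 8.09 for 1700024G13Rik. Calml4 aside, each had a mean under 1 CPM in all other spots. Calml4 had a mean of 191 CPM in the ventricle wall spots and a higher mean, 466 CPM, in the choroid plexus spots. For Sntn these means were 76.5 and 36.4 CPM.

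Regulators of multiciliation divided. Rfx2 stood at 21.9 to 35.1 CPM against a mean of 1.54 in all other spots, Trp73 at 11.5 to 25.9 CPM against 0.933, and Myb at 20.2 to 37.1 CPM against 0.219. Rfx3 was closer to the other spots, at 21.9 to 41.6 CPM against a mean of 18.9, and Rfx1 stood at 18.5 to 40.1 CPM against 14.1. Mcidas and Cdc20b, which act while centrioles multiply in young multiciliated cells, had 0 UMIs in all 150 ventricle wall spots, which allows a level of up to 0.895 CPM (3 counts over all spots, for counting error only). Intraflagellar transport genes, which motile and primary cilia share, had a median log2 ratio of 1.05, with 14 of 26 at least 2-fold higher. Ift20 of that list ran from 149 to 183 CPM against a mean of 129.

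Ependymal genes that do not build the axoneme, and that the rule did not use, were also higher than in all other spots. The list was chosen with earlier results of these data known, so it is no independent check of the label. Its summed level ran from 11493 to 14926 CPM in the ventricle wall spots and from 3160 to 3912 CPM in all other spots. The choroid plexus spots held 7868 to 10320 CPM. Rarres2, which encodes chemerin, stood at 620 and 554 CPM in young, 440 and 609 in middle and 604 and 498 in old sections, against 8.39 to 14.2 in all other spots. Mia, a small secreted protein, ran from 169 to 297 CPM against 2.06 to 3.996 and Cd24a, a surface glycoprotein, from 175 to 231 CPM against 4.51 to 6.90. Nnat, the imprinted gene neuronatin, ran from 860.5 to 1842 CPM against 182 to 265. Vim, an intermediate filament of ependymal cells and reactive glia, ran from 333 to 705 CPM against 25.3 to 54.6. Of the 20 genes of this list, 15 were at least 2-fold higher in the ventricle wall spots. S100b and Aqp4, which astrocytes share, had median ratios of 1.86-fold and 3.51-fold.

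Promoters of the ciliary genes are shown for letters of the X-box, the paired motif that RFX factors bind, because RFX factors and Foxj1 are the known regulators of this program. RefSeq windows on GRCm38.p6, from 250 bases before to 50 after a start, were found for 79 of the 107 genes in the motile cilia lists and the ependymal markers, and were searched on both strands. The core site GTTGCC was present for 41.8% of these 79 genes and for 14.1% of all 27025 genes in the table. The full form, GTTNCC and GGNAAC with any 2 bases between, was present for 2 of them, Pifo and Ccdc151 (2.53%, against 0.529% of all genes), and the forkhead letters TGTTTAC for 5.06% against 4.05%. A match to the full form can contain the core site on one strand or the other, as it does in Pifo. The core site was also present for 47.6% of 21 intraflagellar transport genes, for 4 of 11 choroid plexus genes and for 3 of 6 general neuron genes. Among the 20 genes of highest ratio, 15 had a window, of which 5 held the core site and 0 the full form. Of the 4 ependymal rule genes 3 had a window, and that of Tmem212 is not shown. Every window shown holds a match. The windows below are those of the rule genes Ccdc153 (chr9:44240427-44240726, plus strand) and Dynlrb2 (chr8:116504765-116505064, plus strand), of Sntn (chr14:13670626-13670925, plus strand), which had the highest ratio, and of Pifo (chr3:106001448-106001747, minus strand), written 5′ to 3′ along the gene, with the core site in capitals in the first 3 and the full X-box form in capitals in Pifo.
Ccdc153: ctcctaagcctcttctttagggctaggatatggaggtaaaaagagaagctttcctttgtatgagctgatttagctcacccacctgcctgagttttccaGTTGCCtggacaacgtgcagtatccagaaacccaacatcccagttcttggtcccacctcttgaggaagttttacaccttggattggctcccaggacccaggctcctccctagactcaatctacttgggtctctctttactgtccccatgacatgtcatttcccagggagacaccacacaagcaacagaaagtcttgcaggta
Dynlrb2: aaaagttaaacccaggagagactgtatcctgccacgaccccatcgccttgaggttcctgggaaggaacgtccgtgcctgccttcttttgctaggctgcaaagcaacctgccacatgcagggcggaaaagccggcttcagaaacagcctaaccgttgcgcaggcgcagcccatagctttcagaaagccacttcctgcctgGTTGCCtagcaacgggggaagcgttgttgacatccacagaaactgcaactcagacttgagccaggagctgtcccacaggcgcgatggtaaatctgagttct
Sntn: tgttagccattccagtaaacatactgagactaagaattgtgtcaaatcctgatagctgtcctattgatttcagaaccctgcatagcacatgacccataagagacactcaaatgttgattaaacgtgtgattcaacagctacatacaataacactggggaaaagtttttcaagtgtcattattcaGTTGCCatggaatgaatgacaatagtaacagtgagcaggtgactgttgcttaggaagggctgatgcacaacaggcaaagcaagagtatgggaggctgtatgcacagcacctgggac
Pifo: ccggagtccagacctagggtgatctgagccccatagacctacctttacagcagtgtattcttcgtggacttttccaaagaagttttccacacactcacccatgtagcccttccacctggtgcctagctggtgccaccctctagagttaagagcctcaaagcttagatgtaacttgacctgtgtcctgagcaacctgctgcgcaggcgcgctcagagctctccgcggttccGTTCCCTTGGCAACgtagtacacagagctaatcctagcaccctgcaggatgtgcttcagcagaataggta
The core site begins 152 bases before the start in Ccdc153, 51 in Dynlrb2 and 66 in Sntn, and the X-box form begins 20 bases before the start in Pifo. These are matches of letters and carry no measurement of binding. Pifo, which encodes the ciliary protein pitchfork, stood at 102 and 64.4 CPM in young, 43.8 and 84.6 in middle and 110 and 83.1 in old sections, against a mean of 0.869 in all other spots.

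The spots also held RNA of what lies beside the ventricles. Oligodendrocyte and myelin genes were higher than in all other spots for 12 of 12 genes (median log2 ratio 1.68), medial habenula genes for 9 of 10 (2.51) and microglia genes for 12 of 12 (0.91). General neuron genes were lower for 10 of 10, with a median log2 ratio of -1.94, and Snap25, a synaptic vesicle fusion protein, ran from 421 to 708 CPM against a mean of 2658. Choroid plexus genes outside the rule were higher for 12 of 12 although the 30 spots richest in the 4 rule genes had been dropped. Ttr, the transthyretin gene of the choroid plexus, stood at 5176 and 2664 CPM in young, 3213 and 27527 in middle and 16401 and 8051 in old sections, against 134845 to 233286 CPM in the choroid plexus spots. Middle 2 and old 1 thus held the most choroid plexus RNA, and the 2 sections of the middle group differed more than 8-fold.

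**Figure D2:**
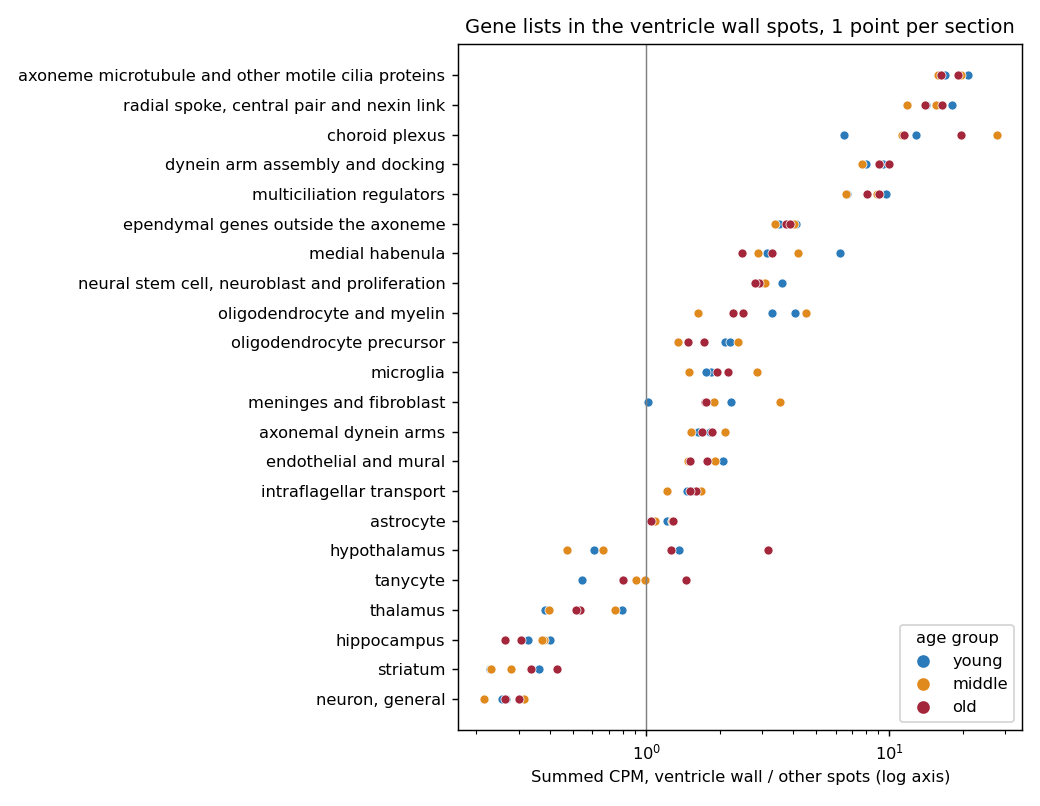
Summed CPM of each gene list in the 25 ventricle wall spots divided by that in all other spots, on a log axis, with 1 point per section coloured by age. Motile cilia and choroid plexus lists lie highest and general neuron genes lowest. The dynein arm list, whose sum includes Dynll1, lies near 2.

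Neighbouring tissue differed from spot to spot within each section. The summed level of the 12 myelin genes in single ventricle wall spots ran from 1725 to 73597 CPM in young 1 and from 593 to 55261 CPM in old 2. Medial habenula genes were at 0 in the lowest spot of each section and at 3470 to 6113 CPM in the highest spot. Ttr took between 0% and 13.9% of a spot's UMIs, and exceeded 1% of UMIs in 5, 2, 2, 7, 12 and 5 spots of young 1, young 2, middle 1, middle 2, old 1 and old 2. Rax, a transcription factor of tanycytes at the floor of the third ventricle, was found in 1 spot of middle 1, 3 of middle 2 and 4 of old 2, and in none of young 1, young 2 and old 1.

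Within a section, spots with a higher marker score held more of the other cilia genes. Spearman's rho between the score and the list of axoneme microtubule and other motile cilia proteins was between 0.82 and 0.92 over the 25 spots of each section. For ependymal genes outside the axoneme it was between 0.64 and 0.87. For myelin it was between -0.38 and -0.14, and for astrocyte genes between -0.48 and 0.40. The spots of a section share a library and the score chose them, so these values are a description.

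**Figure D3:**
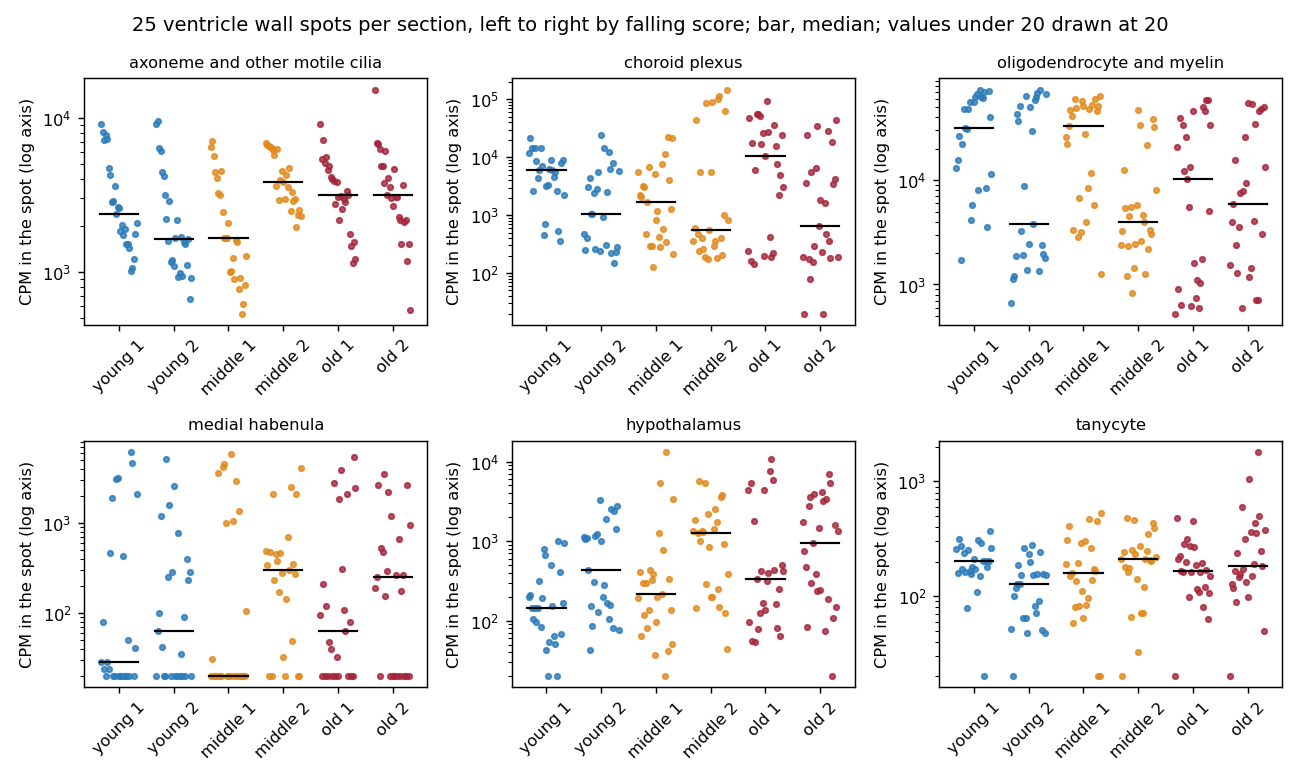
Summed CPM of 6 gene lists in each of the 25 ventricle wall spots of a section on log axes, ordered left to right by falling marker score, with the median as a bar and values under 20 drawn at 20. Motile cilia genes fall with the score in every section, whereas choroid plexus, myelin and medial habenula genes scatter over more than 10-fold among the spots of a section.

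The age comparisons asked which transcripts of the ventricle wall differed between mice of 6, 18 and 21 months. Of 9163 genes tested, 3 passed in old against young (0.0327%), all lower in old: Sgk1, Hspa1b and Hspa1a. The same 3 passed in middle against young (0.0327%), again lower than in young, and 0 passed in old against middle. Both comparisons share the young sections, so they are not independent. Tests were edgeR's quasi-likelihood test with Benjamini-Hochberg adjustment at 0.05, two-sided. In old against middle, 209 genes had an unadjusted p under 0.05 and DESeq2 also called 0.

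Sgk1 encodes a kinase induced by glucocorticoids and serum. It stood at 369 and 495 CPM in young, 94.4 and 74.3 in middle and 73.3 and 94.5 in old sections. Both young sections lay far above all 4 older ones, and middle and old overlapped. The log2 fold change was -2.41 ± 0.26 (SE) in old against young (edgeR adjusted p = 0.000339) and -2.31 ± 0.25 in middle against young (adjusted p = 0.000457). With slide as a block the changes were -2.38 (adjusted p = 0.0157) and -2.28 (adjusted p = 0.032), and without old 1 the old against young call was lost (adjusted p = 0.101).

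In all other spots Sgk1 stood at 133 and 169 CPM in young, 57.9 and 75.3 in middle and 66.0 and 68.6 in old sections. Its log2 change there was -1.22 in old against young (adjusted p = 0.0493). The difference between the ventricle wall and other spots in this change was -1.21 ± 0.26 on the log2 scale, with an unadjusted p of 0.000196 and an edgeR adjusted p of 0.899, so it did not pass. Young ventricle wall spots held over 2 times the level of young other spots, and the older sections stood closer, with middle 2 and old 1 near equal inside and outside.

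Hspa1a and Hspa1b encode inducible Hsp70 chaperones. The genes are nearly identical, and how reads were divided between them is not given in the sources used here, so their separate values are uncertain. Hspa1b stood at 144 and 125 CPM in young, 38.8 and 33.0 in middle and 34.97 and 17.2 in old sections, with a log2 change of -2.30 in old against young (edgeR adjusted p = 0.00785). Hspa1a stood at 98.5 and 107 CPM in young, 20.2 and 26.8 in middle and 21.6 and 28.6 in old sections, with a log2 change of -2.10 (adjusted p = 0.0187). Neither overlapped between young and older sections. The young values of Hspa1a rest on 80 UMIs in 22 spots and 55 UMIs in 17 spots, and the older sections held 10 to 13 UMIs each.

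Both genes were also lower with age in all other spots, where Hspa1a had a log2 change of -1.71 (adjusted p = 0.000586) and Hspa1b of -1.80 (adjusted p = 0.0037). The difference from the ventricle wall was -0.43 ± 0.35 for Hspa1a and -0.55 ± 0.33 for Hspa1b, and neither passed. With slide as a block both calls in old against young were lost (adjusted p = 0.0866 for each). Both were also lost without old 1, with changes of -1.87 for Hspa1a and -2.997 for Hspa1b. The same held without old 2, with changes of -2.27 and -1.98. With 15 member spots Hspa1b was not called (edgeR adjusted p = 0.0511). In middle against young Hspa1a was called in 15 of 21 alternatives and Hspa1b in 13 of 20. DESeq2 kept Hspa1b (adjusted p = 0.0295) but not Hspa1a (adjusted p = 0.364). The share of mitochondrially encoded transcripts was 10.4% and 11.2% in young, 11.9% and 8.90% in middle and 8.64% and 8.57% in the old ventricle wall spots; its part in these results was not tested.

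Other genes of the stress lists had values in the same direction without passing. Dnajb1, a co-chaperone of Hsp70, stood at 171 and 216 CPM in young, 67.4 and 94.9 in middle and 108 and 83.1 in old sections, with a log2 change of -1.02 in old against young (edgeR adjusted p = 0.539). Nfkbia, the feedback inhibitor of NF-kB, stood at 94.8 and 68.3, 53.9 and 35.1, and 43.3 and 28.6 CPM in the same order, with a change of -1.18 (adjusted p = 0.998). Hspb1, a small heat shock protein, had a change of -1.40 and Ddit4, a stress-induced inhibitor of mTOR, of -1.28 (adjusted p = 0.539 for each). Of 16 heat shock and co-chaperone genes, 2 passed as lower and 13 lay below 0, with a median of -0.32; over all genes 0.0327% passed as lower and the median was -0.003. Of 8 genes of NF-kB feedback and the glucocorticoid response that were tested, 1 passed as lower, Sgk1, and 7 lay below 0.

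**Figure D4:**
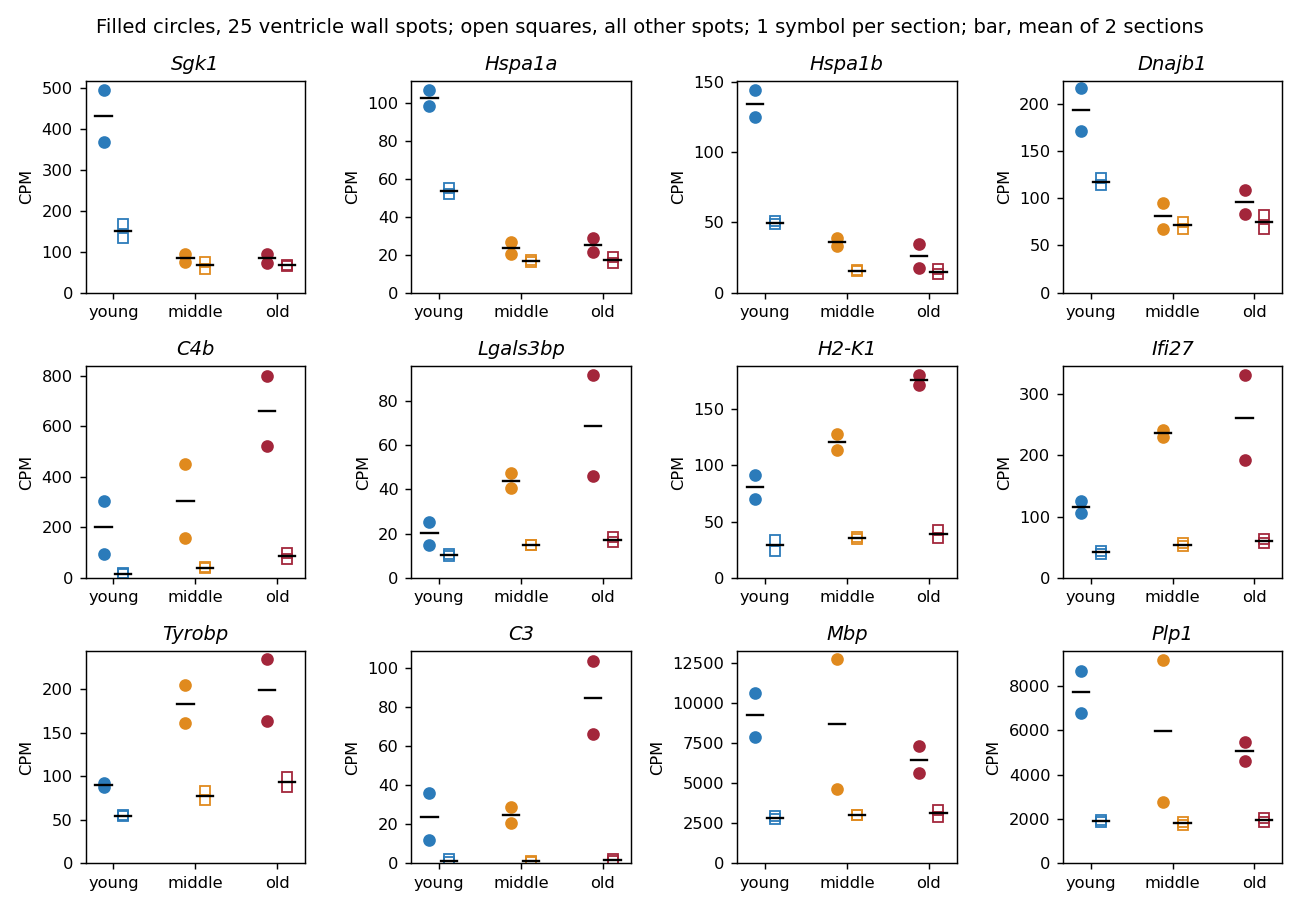
CPM of 12 genes in the summed ventricle wall spots (filled circles) and in all other spots (open squares), 1 symbol per section, with bars at the mean of the 2 sections of an age. Sgk1, Hspa1a and Hspa1b are higher in both young sections than in any older one; C4b, Lgals3bp, H2-K1, Ifi27, Tyrobp and C3 are higher in both old sections than in both young ones but none of these passed.

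Motile cilia genes showed no called change with age. Of 101 genes of the 4 lists in the files, 92 passed the filter on low counts. In old against young 0 of the 92 were called (0.0327% of all genes were). At that share, 0 calls among 92 genes say little about these genes. An unadjusted p under 0.05 was reached by 0 of the 92 (3.56% of all genes). DESeq2 and each of the other alternatives also called 0. The median log2 change of the 92 genes was 0.06, beside -0.003 over all genes, with values from -0.98 to 0.76 and a median standard error of 0.35. Groups did not overlap for 21 genes higher and 4 lower, beside 19.7% higher and 15.6% lower over all genes. The spots were chosen for ciliary markers, and the part of that choice in these values was not tested. With 60 choroid plexus spots dropped the median was 0.63, over 80 genes, and with none dropped it was -0.12. It was -0.02 with 40 spots and 0.08 with 15.

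Single genes illustrate the spread. Rsph1 stood at 256 and 224 CPM in young, 182 and 291 in middle and 318 and 212 in old sections, with a log2 change of 0.12 ± 0.25 in old against young. Sntn had a change of -0.29 ± 0.29 and Ak7 of 0.03 ± 0.27. For Rsph1 and Ak7 the 2 sections of the middle group lay further apart than the means of young and old. In middle against young, 0 of the 92 genes were called (0.0327% of all genes were) and the median was -0.08.

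Ependymal genes outside the axoneme also had no called change. Rarres2 had a log2 change of -0.12 ± 0.20 in old against young, Mia of -0.01 ± 0.25 and Cd24a of -0.20 ± 0.22. Of 19 genes tested, 0 passed (0.0327% of all genes did). Vim stood at 508 and 333 CPM in young, 487 and 446 in middle and 624 and 705 in old sections, and both old sections lay above all others, but its change of 0.61 ± 0.22 did not pass (edgeR adjusted p = 0.998). Trp73, the p53-family regulator of multiciliation, stood at 25.9 and 25.4, 18.5 and 20.6, and 21.6 and 11.5 CPM in the same order, with a change of -0.57 ± 0.45. Rfx2 had a change of 0.13 ± 0.38.

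Genes of glia, immune cells and antigen presentation had positive values in old against young, and none passed in the fit of all 6 sections. Of 31 glia and immune genes tested, 29 lay above 0 (49.6% of all genes did), 16 had an unadjusted p under 0.05 as higher (1.65% of all genes), 23 did not overlap between young and old (19.7%), and the median log2 change was 0.87. The list was chosen with earlier results of these data known, so its direction is no independent evidence, and its median was 0.03 when no choroid plexus spots were dropped before the 25 were taken. Of 12 microglia genes, 12 lay above 0 with a median of 0.80, or 0.04 when no choroid plexus spots were dropped. MHC class I genes, which present peptides to T cells, had a median of 0.97 over 7 genes, and 9 interferon response genes had a median of 0.55. The MHC class I median was 0.42 without young 1 and 0.51 with no choroid plexus spots dropped, and the interferon median ran from 0.34 without old 1 to 2.22 without young 2. In bulk sums such as these, more cells of a type and more RNA per cell cannot be told apart.

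Lgals3bp, a secreted galectin-binding protein induced by interferon, had the smallest p among genes with higher values in old. It stood at 14.8 and 25.4 CPM in young, 40.5 and 47.5 in middle and 91.6 and 45.8 in old sections, with a log2 change of 1.86 ± 0.40 (edgeR adjusted p = 0.465). H2-K1, a classical MHC class I heavy chain, stood at 70.2 and 91.7, 128 and 113, and 172 and 180 CPM in the same order, with a change of 1.10 ± 0.25 (adjusted p = 0.483). Both old sections exceeded both middle sections, which exceeded both young ones, for H2-K1 but not for Lgals3bp. The other 3 genes named by the same rule were Ifi27, an interferon-induced gene, at 1.15, Tyrobp, a microglial signalling adaptor, at 1.10, and Ctsd, a lysosomal protease, at 0.84.

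Complement genes were variable between sections. C4b stood at 305 and 95.6 CPM in young, 452 and 157 in middle and 523 and 799 in old sections, with a change of 1.64 ± 0.89 in old against young. The 3 richest of 25 spots held 67.3% of C4b UMIs in young 1 and 69.9% in old 2, against 34.7% in young 2. C3, the central complement component, stood at 35.7 and 11.7, 20.2 and 28.9, and 103 and 65.9 CPM in the same order, with a change of 1.72 ± 0.41 (edgeR adjusted p = 0.539). C3 was at 0.46 to 2.20 CPM in all other spots, and both old ventricle wall sums exceeded all 4 younger ones. Gfap, the astrocyte filament, stood at 698 and 267, 792 and 237, and 536 and 604 CPM, with a change of 0.18 ± 0.87, and the groups overlapped.

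Myelin genes lay on the other side. Of 12 genes, 11 were below 0 in old against young (median -0.58), and 0 passed (0.0327% of all genes did). Their summed level was 29680 and 22931 CPM in young, 32846 and 11543 in middle and 16115 and 20640 in old sections, so that middle 1 was highest and middle 2 lowest. Mbp, the myelin basic protein gene, had a change of -0.56 ± 0.58. Choroid plexus genes outside the rule had a median of 0.58 over 6 genes tested, with a median standard error of 0.69. That median was -0.24 without old 1, 2.00 without young 1, 0.06 without young 2 and -0.23 with no choroid plexus spots dropped. The selected spots thus differed between sections in how much myelin and choroid plexus RNA they held; the part of this in the age values was not tested.

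**Figure D5:**
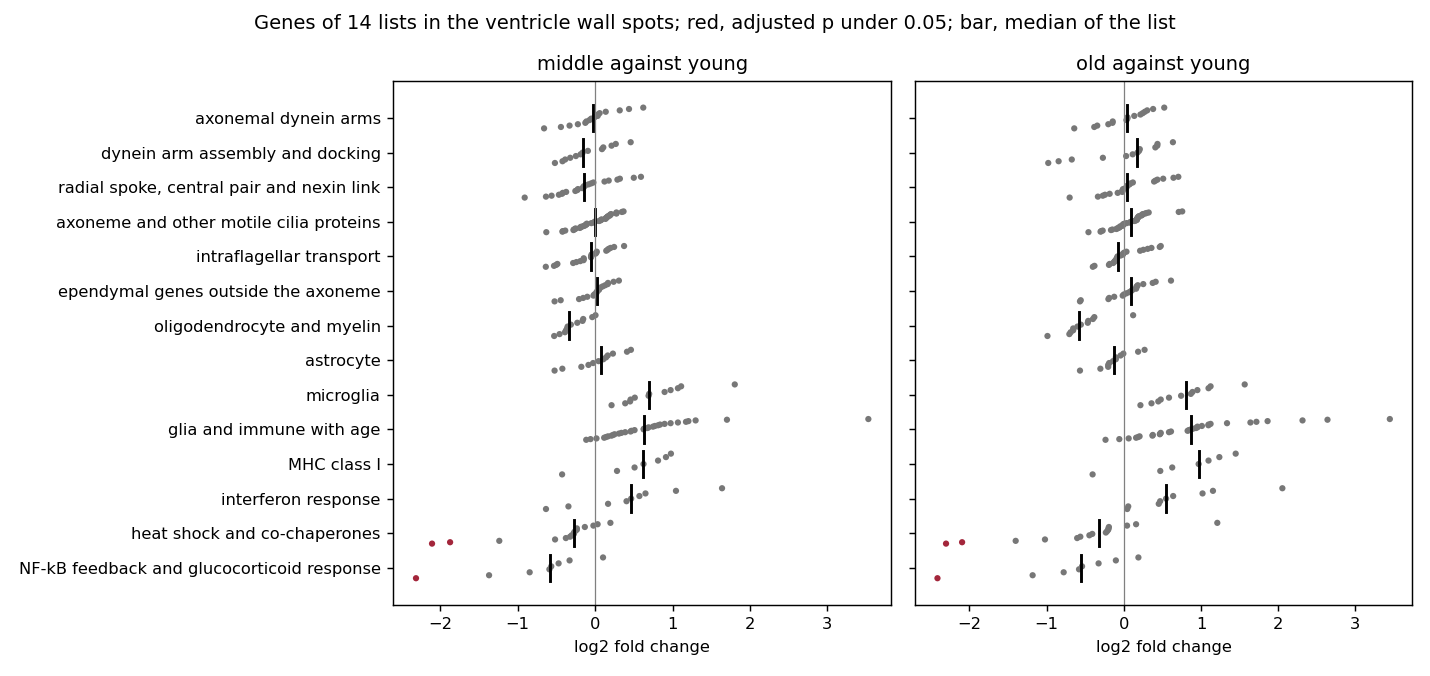
Log2 fold changes of the genes of 14 lists in the ventricle wall spots, middle against young (left) and old against young (right), 1 point per gene, red where the edgeR adjusted p was under 0.05, with the median of the list as a bar. The motile cilia lists centre on 0, microglia, glia and immune, MHC class I and interferon lists lie mostly above 0, and the only red points are Sgk1, Hspa1a and Hspa1b.

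The number of genes that passed changed with the sections fitted. Counts of the 2 middle sections differed by 6.24 times the counting variance (chi-square per degree of freedom), against 3.08 for the young and 2.36 for the old pair. Without middle 1, 49 genes passed in old against young, and without middle 2, 53 did, with 48 shared between them. With both middle sections left out 13 genes passed, and without young 2, 14 did. Of the 48, 21 were higher and 27 lower in old. Over all genes tested, 0.226% passed as higher and 0.277% as lower without middle 1, and 0.224% and 0.292% without middle 2. The higher genes included 9 of 32 tested in the glia and immune list, among them C3, C1qa, Tyrobp, Ctsz and Lgals3bp, together with H2-K1, H2-D1 and Bst2, and the lower genes included 7 of 12 in the myelin list and 4 of 16 heat shock genes. None was a motile cilia gene. Some of the higher genes differed widely between the 2 old sections. Bst2 stood at 11.1 and 21.5 CPM in young and 99.9 and 20.05 CPM in old sections, so old 2 lay below young 2. Otp and Spp1, also among the higher genes, held 33 and 4 UMIs in old 1 and 1 and 20 UMIs in old 2. Otp and Oasl2, another of the higher genes, missed the filter on low counts in the fit of all 6 sections and were not tested there. More genes were tested with a middle section left out, 9730 without middle 1 and 10266 without middle 2, beside 9163 with all 6 sections. In these fits the remaining middle section is a lone sample and adds nothing to the estimate of spread, which rests on the young and old pairs. In comparisons with middle it is assumed to vary like those pairs. Without old 1, 0 genes passed.

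Middle against young changed more with the section left out. It gave 96 calls without middle 1, among them 12 of 12 myelin genes as lower (0.843% of all genes tested passed as lower). It gave 25 without middle 2, among them 0 myelin genes and 6 of 32 glia and immune genes as higher (0.146% of all genes tested passed as higher). The 2 sets shared 5 genes: Sgk1, Hspa1a, Hspa1b and Dnajb1 as lower and Ifi27 as higher. Ifi27 stood at 126 and 105 CPM in young, 231 and 241 in middle and 331 and 192 in old sections, and both middle sections exceeded both young ones. In old against middle, 4 genes passed without middle 1 and 126 without middle 2, with 0 shared.

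In old against middle, where 0% of genes passed, the uncalled genes of smallest p included C3 with higher values in old (log2 change 1.78 ± 0.43) and Ddn, which encodes a protein of neuronal dendrites, with lower values (-1.81 ± 0.40). Ddn stood at 143 and 66.0 CPM in middle and 29.97 and 34.4 in old sections. Ngb, the neuronal globin, stood at 5.06 and 26.8 CPM in middle and 58.3 and 48.7 in old sections. Neither gene overlapped between middle and old, which the rule that named them required. Over all genes, 16.8% did not overlap as higher in old and 11.3% as lower. In middle against young, Aif1, a microglia and macrophage gene, stood at 9.85 and 11.7 CPM in the young and 45.5 and 26.8 in the middle sections, with a log2 change of 1.80 ± 0.50 (edgeR adjusted p = 0.999).

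Whether age changes in the ventricle wall differed from those in all other spots was tested with a difference term, section as a block. In old against young 1 of 9163 genes passed (0.0109%), Avp, which encodes the neuropeptide vasopressin of hypothalamic neurons and is no ependymal gene. In middle against young 0 passed, and 207 genes had an unadjusted p under 0.05. All other spots held more of the ependymal markers in middle 2, old 1 and old 2 than in the other 3 sections, with Ccdc153 at 1.10 to 2.79 CPM, and 33.0% to 40.8% of marker UMIs outside both selected sets. Among ependymal genes, Rarres2 had a difference of -0.54 ± 0.23, which did not pass. The part of these remaining marker UMIs in such differences was not tested.

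Summed levels of 27 gene lists were also compared over the 3 ages with an exact permutation test over 90 assignments, for which the smallest p is 0.0667. Only MHC class I reached it, at 382 and 620 CPM in young, 770 and 635 in middle and 809 and 819 in old sections, with an adjusted p of 0.9 over the lists. Hippocampal genes and the 2 lists of heat shock and of NF-kB and glucocorticoid genes had p = 0.133 by the same exact test. The axoneme list had p = 0.933 and ependymal genes outside the axoneme p = 0.533 by the same exact permutation test, and 2 sections per age cannot give a p under 0.05. With other choices of spots MHC class I did not reach the smallest p of the exact test. Its p was 0.2 with 15 or 40 spots, 0.133 with 60 choroid plexus spots dropped and 0.6 with none dropped. Other lists reached 0.0667 there, such as astrocyte genes with 15 spots and medial habenula genes with 40.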

How the data were processed

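Visium RNA was measured in 6 brain sections of 3 ages. The deposited matrices hold whole-number UMI counts per gene and spot, and the file headers name Space Ranger 1.3.1 (the submitters' processing notes name 3.1 and mm10). The other deposited tables hold spot barcodes and gene names. The authors' filter on spots is not given in the sources used here.

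Counts of member spots were summed per section. Genes were kept with filterByExpr, scaled with TMM and fitted with edgeR 4.0.16 (robust quasi-likelihood, legacy quasi-dispersion), all 6 sections, age as the only term, 3 residual degrees of freedom. The 8 rule genes stayed in library sizes and were not tested. CPM values are per 1000000 UMIs of the summed spots, without TMM factors. Log2 ratios and 2-fold counts of lists use CPM + 1. Alternatives were DESeq2 1.42.0, limma 3.58.1 for the difference, other factors, filters, blocks, thinning, other spot numbers and each section left out; scripts were tested on simulated data.

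Members and gene lists were chosen with earlier results of these data known. Named genes were the rule genes, a fixed set, per list the 4 of highest mean CPM, per comparison and direction the called genes or, with under 5, also the 5 uncalled ones of smallest p with at least 20 CPM and no overlap, and the 20 of highest ratio with at least 50 CPM. Of these, the ones given values were picked for their role, as were further list members and genes called without 1 section, after their values were seen. The symbols Dnai1, Dnai2, Dyx1c1, Clec7a and Mx1 were not matched.

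Replicate numbers recur across ages, and for middle and old the number is the slide. Deviations of same-numbered sections correlated over genes at 0.17 (young and middle), 0.01 (young and old) and -0.08 (middle and old).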

Additional observations from a re-analysis of the deposited data

Results flagged for a closer look

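Avp was the one gene whose change from young to old differed between the ventricle wall and all other spots, by 8.11 ± 0.83 on the log2 scale (edgeR adjusted p = 0.0372 over 9163 genes). It stood at 2.46 and 0 CPM in the ventricle wall spots of young 1 and young 2, 89.3 and 4.13 in middle 1 and middle 2, and 1352 and 0 in old 1 and old 2. In all other spots it stood at 115 and 3.05, 94.5 and 6.16, and 202 and 3.54 CPM in the same order. The ventricle wall value in old rests on old 1 alone, where 11 of 25 spots held 812 UMIs and 3 spots held 73.2% of them. Without old 1 the difference was -4.27 and did not pass, and limma, DESeq2 and edgeR's newer quasi-dispersion did not call it. The call was also lost without young 1, young 2, middle 1 or middle 2.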

How the results depend on the processing

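The count of genes called in old against young (3) was 24 with no filter on low counts, 13 with only the 2 groups compared and 6 with no choroid plexus spots dropped, and ran from 0 to 53 when 1 section was left out. In middle against young (3) it was 1 with DESeq2, slide as a block, only the 2 groups, 15 member spots or 60 choroid plexus spots dropped, 5 with no filter or no choroid plexus spots dropped, and 1 to 96 with 1 section left out. In old against middle (0) it was 2 with no filter and 0 to 126 with 1 section left out. For the difference from other spots, old against young (1) gave 0 with limma, DESeq2, the newer quasi-dispersion or at least 10 UMIs in every sum, and 0 to 22 with 1 section left out; middle against young (0) gave 1 with other spots thinned and 0 to 42 with 1 section left out. With the replicate number as a block the counts were 4, 3 and 0 in the age comparisons and 1 and 1 for the differences. The samples share only a number where young is compared, and the number is the slide for old against middle; no call of a named gene was lost under the block.

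Directions reversed for Vim (-0.23) and B2m (-0.010) with no choroid plexus spots dropped, for Gfap with 15 spots (-0.38), with no choroid plexus spots dropped (-0.39) and without young 2 (-0.34; 1.06 without young 1), and for Avp without old 1 (-4.27; 12.2 without young 1). The median log2 ratio of the axoneme and other motile cilia list to other spots (4.40) was 4.64 with 15 spots, 3.97 with 40, 3.96 with 60 choroid plexus spots dropped and 4.09 against the 500 spots of next highest score. The causes were not tested. Sgk1 was called in 20 of 21 alternatives in old against young and 21 of 21 in middle against young. Depth limits single genes: the smallest sum, old 2, held 349128 UMIs.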

Other observations

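Genes of the barrier, transport and water balance of the ventricle wall were near the level of the rest of the section for some members and higher for others. Of 18, 7 were at least 2-fold higher than in all other spots (on CPM + 1), with a median log2 ratio of 0.57. Car2, a carbonic anhydrase of oligodendrocytes and choroid plexus, stood at 1018 and 897 CPM in young, 1244 and 518 in middle and 684 and 862 in old sections. In old against young, 0 of 16 genes of this list were called (0.0327% of all genes were), 3 did not overlap as lower (15.6% of all genes), and the median was -0.07.

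Of 14 genes of neural stem cells, neuroblasts and proliferation, 6 had a median ratio above 1 to all other spots (on CPM + 1), 3 of them at least 2-fold, and 0 were 2-fold lower. The 3 were Cd24a, Sox4 and Igfbpl1. Sox4 ran from 25.8 to 50.7 CPM against a mean of 11.5 in all other spots, and Igfbpl1 from 1.67 to 5.85 CPM against 0.516. Mki67 and Top2a, markers of dividing cells, were at 0 to 1.95 CPM in every section, and Dcx, a marker of newly formed neurons, was at 4.995 to 7.80 CPM against a mean of 9.15 in all other spots. Cd24a is on the same list but is also an ependymal gene, at 175 to 231 CPM against a mean of 5.89 in all other spots. Immediate early genes had a median log2 ratio of -1.46 to all other spots, with 12 of 15 at least 2-fold lower. In old against young, 0 of 9 immediate early genes were called, beside 0.0327% of all genes, and the median was -0.47, while with at least 10 UMIs required in every section it was -0.03.

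Hypothalamic and habenular transcripts depended on the section. Pmch, the melanin-concentrating hormone precursor, stood at 1.23 and 54.6 CPM in young, 283 and 74.3 in middle and 1.67 and 163 in old sections, and in middle 1 a single spot held 129 of 168 UMIs. Tac2, the tachykinin of the medial habenula, stood at 416 and 166, 297 and 204, and 250 and 203 CPM in the same order, and in young 1 one spot held 142 of 338 UMIs.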
